A study of Danio rerio with 31 samples.

Results

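Collagens and the enzymes that build, cross-link and cut the collagen network were followed in whole zebrafish larvae. The members are all detected genes whose symbol begins with col, mmp, timp, p4ha, plod or lox followed by the family's number or letter, together with fn1a, fn1b and sparc. Of 112 RefSeq symbols that fit this rule, 38 genes were matched to 51 probes of the array, and the remaining 74 were not matched to a probe and are not analysed here. Detection meant that some probe of the gene was flagged well above its local background on 75% or more of a set's arrays. In the time course 37 members with 50 detected probes passed, of 11039 RefSeq genes, and at 48 and 50 hours post-fertilization (hpf) 36 members with 49 probes passed, of 10391 genes. The brightest probe of col19a1 was well above background on 33.3% of the time-course arrays, so this gene was left out of every comparison, and col8a2 was left out at 48 and 50 hpf.

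The study used 31 one-colour Agilent arrays of pooled whole wild-type AB strain larvae, labelled as male. In the time course, larvae raised in a light/dark cycle of 14 h light and 10 h dark were placed in constant darkness (DD, 12 arrays) or kept in the cycle (LD, 12 arrays) from the fifth day after fertilization, and 1 pool per condition was taken every 4 h from 0 to 44 h, where 0 h is lights-on. The other 7 arrays are 3 labelled mitfa morphant (1 at 48 hpf, 2 at 50 hpf), 2 of larvae injected with a control morpholino and 2 of uninjected wild type (WT), each with 1 array per age. The mitfa morpholino, an antisense oligonucleotide against the start codon region of this pigment-cell transcription factor, was given at 9 ng or 13 ng, and it limits translation only while the injected oligonucleotide lasts. Precision is limited by how many arrays there are, and nothing says that the pools of a condition came from separate clutches.

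Signals are log2 values quantile normalized within each set, so a difference of 1 is a 2-fold change and levels of different genes or sets are not compared. LD and DD lay on separate slides, each of which held 4 successive time points of 1 condition, and the 48 hpf and 50 hpf arrays were on 1 slide each. On the time-course arrays 75.2% to 92.0% of spots were well above background, and on the others 71.3% to 75.3%. The mitfa probe read 11.95, 11.57 and 11.45 on the arrays labelled mitfa morphant, against 8.46 and 7.93 on the control morphant arrays and 8.47 and 7.83 on the WT arrays. A morpholino against the start codon need not lower its transcript, so this level checks nothing, and the labels are kept in the wording for that reason. Dct and tyrp1b, melanin synthesis genes of the melanophores in which mitfa acts, had lower signals on all 3 labelled mitfa morphant arrays than on the 4 others. Markers of cartilage (cnmd, matn1, epyc), fin fold and connective tissue (and2, dcn, lum), bone (bglap, spp1) and muscle (acta1b, tnnt3a) were detected in the time course, and since the samples are whole larvae, fewer cells of a type and less RNA per cell cannot be told apart.

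Fibrillar collagens such as types I, V and XI assemble into the fibres of skin, fin fold, cartilage and bone, and network or fibril-associated collagens such as types IV, VIII, IX and X line basement membranes or decorate cartilage. Procollagen chains are hydroxylated on proline by prolyl 4-hydroxylases (p4ha genes) and on lysine by lysyl hydroxylases (plod genes) in the endoplasmic reticulum, and lysyl oxidases (lox genes) cross-link the secreted fibres. Matrix metalloproteinases (mmp genes) cut matrix proteins, and the tissue inhibitors of metalloproteinases (timp genes) block them. In the growing larva these genes are active in the head cartilages, the first bones, the skin and the fin folds.

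The second 24 h of sampling were set against the first at the same clock times, to ask how the matrix genes changed as the larvae grew. All 12 detected collagens fell, with folds of 0.456 to 0.722 and a median log2 difference of -0.71, and the cross-linking and hydroxylating genes loxl5b, loxa, plod1a and plod3 fell with them. Among all 37 members 23 fell (62.2%) and 2 rose (5.41%), fn1b and timp2a, at an adjusted p of 5% by limma, with p-values adjusted (Benjamini-Hochberg) over each probe that was detected. Over all RefSeq genes tested, 27.9% fell and 23.0% rose. The median log2 difference of the members was -0.46 and that of all RefSeq genes -0.02.

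The fall was largest for col11a2 among the collagens. Col11a2, a minor fibrillar collagen of cartilage, had signals of 8.69 to 10.29 with a median of 9.46 on the 12 arrays of the second 24 h, against 10.03 to 10.96 with a median of 10.46 on the 12 arrays of the first. The highest array of the second 24 h, in LD at 24 h, overlapped the lowest arrays of the first, and each of the 12 pairs of equal condition and clock time was lower on the second day. The log2 difference was -1.13 with a standard error of 0.08 and an adjusted p of 6.93e-07. Col9a2, a fibril-associated collagen of cartilage, ranged from 15.08 to 16.07 in the second 24 h with a median of 15.49, against 15.98 to 16.63 in the first with a median of 16.38. It was lower in 12 of 12 pairs (log2 difference -0.87, SE 0.07, adjusted p 1.46e-06 by limma). Col10a1a, known in mammals as a marker of hypertrophic cartilage and in zebrafish also expressed by bone-forming cells, had a log2 difference of -0.81 with an SE of 0.10 and was lower in 12 of 12 pairs.

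The 3 type I collagen genes, which make the main fibre of skin, tendon and bone, fell by similar folds. Col1a2 ranged from 16.71 to 17.91 in the second 24 h with a median of 17.17, against 17.65 to 18.28 in the first with a median of 17.96. Its mean on the successive slides was 18.02, 17.66 and 17.11 in DD and 18.02, 17.66 and 16.99 in LD, a descent of similar depth in both conditions. The fold of the second over the first 24 h was 0.608 for col1a2, 0.581 for col1a1a and 0.628 for col1a1b, with 12 of 12 pairs lower for each. Col5a2a, whose product joins type I fibres and limits their width, had the smallest fall among the collagens, with a fold of 0.722. Col4a5, a basement membrane chain, col11a1a and col27a1b each had 1 pair of the 12 that was higher on the second day.

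**Figure D1:**
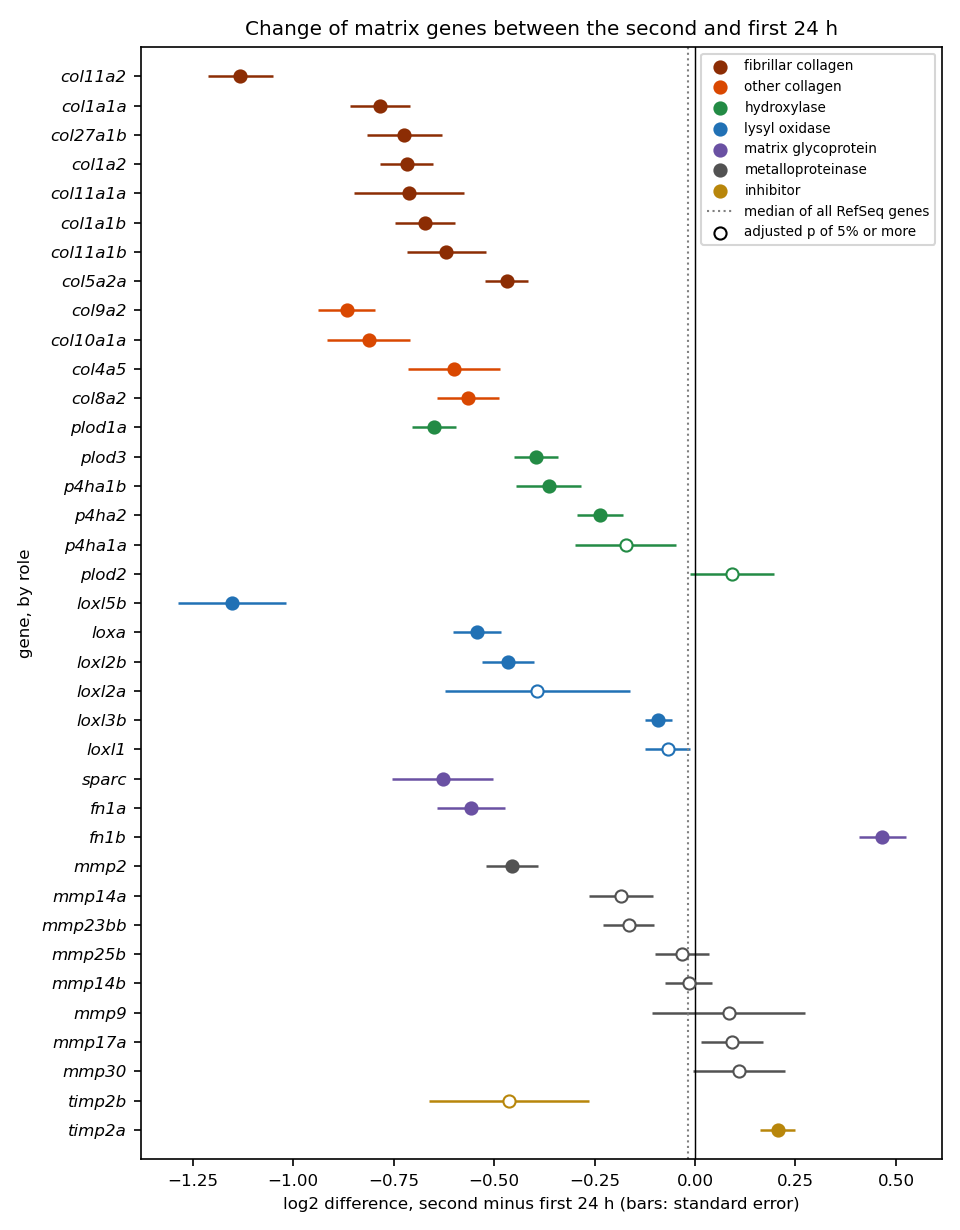
Log2 difference between the second and the first 24 h (x axis) for each of the 37 members (y axis, grouped by role), with bars for the standard error of the limma fit over 24 arrays, filled points for an adjusted p below 5% and a dotted line for the median of all RefSeq genes. All 12 collagens lie left of -0.4, most metalloproteinases lie near 0, and fn1b and timp2a are the filled points on the right.

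The modifying enzymes split by gene. Of 6 hydroxylase genes 4 fell, with a group median of -0.30. Plod1a, a lysyl hydroxylase, ranged from 11.64 to 12.53 in the second 24 h, against 12.28 to 13.12 in the first, and its log2 difference of -0.65 (SE 0.06) was the largest of the hydroxylases. P4ha1b (-0.36), plod3 (-0.40) and p4ha2 (-0.24) also fell, while p4ha1a (-0.17, SE 0.13) and plod2 (0.09, SE 0.10) did not pass the test. Of 6 lysyl oxidase genes 4 fell. Loxl5b had the largest fall of all members, with 5.91 to 7.82 in the second 24 h and a median of 6.59, against 6.96 to 9.21 in the first and a median of 7.65 (log2 difference -1.15, SE 0.13, adjusted p 1.77e-05 by limma). Loxa fell by 0.54 and loxl2b by 0.47 on the log2 scale, loxl3b by 0.09, and loxl1 (-0.07) and loxl2a (-0.39, SE 0.23) did not pass.

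The paired fibronectin genes went opposite ways. Fibronectin is a matrix glycoprotein that binds both collagen and cell-surface integrins, and zebrafish carry 2 copies of its gene. Fn1b ranged from 15.43 to 15.97 in the second 24 h with a median of 15.68, against 14.82 to 15.56 in the first with a median of 15.17, and was higher in 12 of 12 pairs (log2 difference 0.47, SE 0.06, adjusted p 2.95e-05 by limma). Fn1a ranged from 10.51 to 10.998 in the second 24 h with a median of 10.697, against 10.98 to 11.56 in the first with a median of 11.21, and was lower in 12 of 12 pairs (log2 difference -0.56, SE 0.08, adjusted p 0.00015). Its highest arrays were at 16 and 20 h, and the signal then dropped to 10.94 in DD and 10.998 in LD at 24 h. Sparc, a collagen-binding glycoprotein of bone and skin matrix, fell by 0.63 with an SE of 0.13, and 11 of its 12 pairs were lower.

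**Figure D2:**
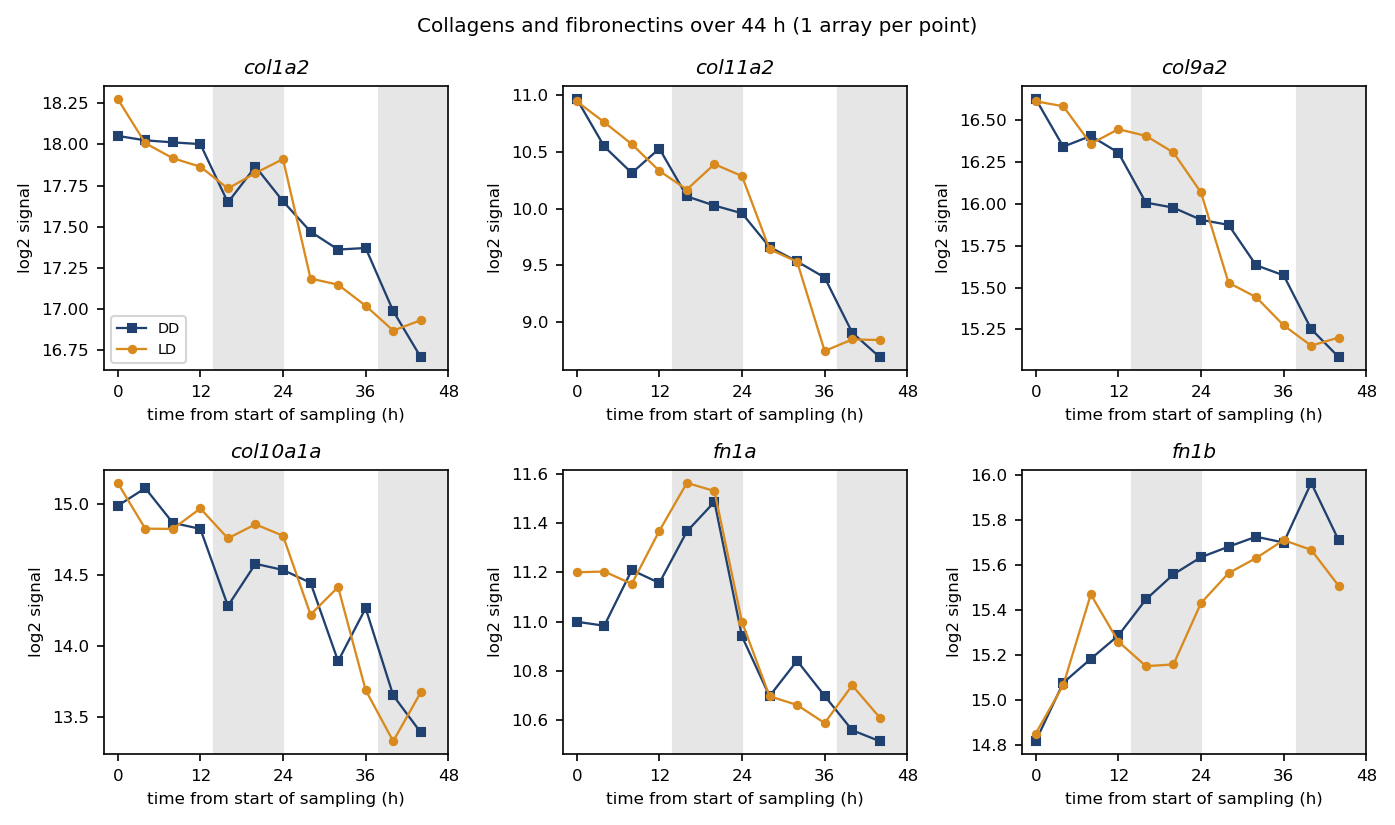
Log2 signal (y axis) against hours from the start of sampling (x axis) for 4 collagens and both fibronectin genes, with 1 array per point, squares for DD, circles for LD and grey bands for the dark hours of the LD cycle. The collagens are lower in the second 24 h in both conditions, and in LD most of their fall lies after 24 h. Fn1a peaks at 16 to 20 h and then drops, and fn1b climbs to its highest arrays, at 36 to 40 h.

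Of 8 metalloproteinases mmp2 fell and 7 did not pass the test, with a group median of -0.02. Mmp2, or gelatinase A, which degrades basement membrane and denatured collagen, ranged from 13.85 to 14.49 in the second 24 h, against 14.26 to 15.02 in the first (log2 difference -0.46, SE 0.07, adjusted p 9.34e-05 by limma, lower in 12 of 12 pairs). The membrane-type metalloproteinases mmp14a and mmp14b, which activate mmp2 in mammals, had differences of -0.18 (SE 0.08, adjusted p 0.077 by limma) and -0.02 (SE 0.06). Mmp23bb, a membrane-anchored metalloproteinase, had a difference of -0.165 with an SE of 0.06 and just missed the limit (adjusted p 0.0519). Timp2a rose by 0.21 (SE 0.04, adjusted p 0.00206), with all 12 pairs higher, and timp2b had a difference of -0.46 with an SE of 0.20 (adjusted p 0.0746).

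The day change was measured in DD and LD separately as well. In DD alone 17 members fell, where 13.9% of RefSeq genes were lower, and in LD alone 23, where 19.9% were lower. Of the falling members 10 in DD and 12 in LD were collagens, and the median over the collagens was -0.66 in DD and -0.80 in LD. In each condition alone 2 members rose, where 1261 of 11039 RefSeq genes were higher in DD and 1635 in LD. The risers were fn1b and timp2a in DD, and fn1b and mmp9 (adjusted p 0.00778 by limma) in LD. Timp2a did not pass in LD alone (0.12, adjusted p 0.146). The difference between DD and LD in the day change passed the 5% limit for 0 of 37 members, against 0.00906% of all RefSeq genes. In the same limma fit 9 members had an unadjusted p under 0.05. The share of all RefSeq genes at that unadjusted limit is not given here, so the 9 are not read as a result. The smallest p-values of that fit were for mmp9 (p 0.00886, adjusted p above the limit), with a day change of -0.38 in DD and 0.55 in LD, and timp2b (p 0.0127), with -0.93 in DD and 0.00 in LD. With the slide as a fixed block the median standard error of the members was 0.18, against 0.08 without it, and 1 member, col1a1a, kept an adjusted p below 5% (0.0495), as did 0.163% of RefSeq genes that were lower. The 12 collagens were still below 0 there with a median of -0.67, and with the slide as a random block the largest adjusted p among them was 0.00671. Over the 24 arrays, left out 1 at a time, the count of falling members was 22 to 24.

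Genes of the same pathway outside the rule were read from a list of 52, of which 30 were tested. Of these 17 fell and 1 rose, with a median log2 difference of -0.37, where 27.9% of RefSeq genes fell and 23.0% rose. Ppib (-0.40) and crtap (-0.60), which serve proline isomerization and 3-hydroxylation of procollagen, and the small leucine-rich proteoglycans lum (-0.64), dcn (-0.42) and epyc (-0.52) were among those that fell. Among the other proteoglycans of that class fmoda fell (-0.41), while bgna (-0.03) and bgnb (0.06) did not pass. The riser was acp5a, tartrate-resistant acid phosphatase of bone-resorbing cells, at 0.74 with an SE of 0.14. Some cell type markers moved beside the collagens, in both directions. The tested chondrocyte markers, the fibroblast markers dcn and lum and the osteoblast markers runx2b and sp7 also belong to the pathway list. They are counted in both places, so their counts are not separate evidence. The shares of 27.9% and 23.0% apply to the marker counts too, and each list holds few genes. Of 4 chondrocyte markers 3 fell, cnmd (-0.80), matn1 (-0.76) and epyc (-0.52), while sox9a did not pass (0.02, adjusted p 0.944 by limma). The median of the 4 was -0.64, and their summed linear signal was 24755 to 47893 in the second 24 h, against 46562 to 72139 in the first. Of 4 fibroblast and fin fold markers 3 fell, with summed signals of 28512 to 44935 against 49707 to 58551, and of 3 muscle markers 2 fell and 1 rose. Of 4 osteoblast markers 1 fell, runx2b (-0.64), and 1 rose, spp1 (0.27, adjusted p 0.00744 by limma), with summed signals of 22321 to 78650 in the second 24 h, against 21614 to 51115 in the first. Of 4 epidermal markers 1 rose and 1 fell, and 0 of 3 macrophage and neutrophil markers passed. Of 3 melanophore markers 2 fell, tyrp1b (-0.32) and dct (-0.29), and of 2 notochord markers 1 fell, shha (-0.315). Of 2 retina and brain markers 0 passed. The part of cell numbers in the collagen result was not tested.

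The 24-h rhythm was tested next, first by Fisher's g test with the limits of the study's methods, a p under 0.5 with a dominant period of 24 h in both DD and LD. By this rule 8 of 37 members were circadian oscillating (21.6%), against 17.6% of all RefSeq genes. They are the hydroxylase genes p4ha1b and p4ha2, the lysyl oxidase genes loxl1 and loxl2b, the metalloproteinase genes mmp14a, mmp14b and mmp30 and the inhibitor gene timp2a. A limma test of the 24-h cosine and sine terms beside a straight line called 10 members (27.0%), against 27.5% of RefSeq genes, 7 of them also in the g-test set. These shares lie close to the background. At a g-test p under 0.15 in 1 condition, 4 members passed in DD (10.8%, background 13.0%) and 7 in LD (18.9%, background 21.6%). No collagen was called by the g test or by limma, and all 12 had 48 h as the dominant period in both DD and LD, against 10 of the other 25 members. The share of all RefSeq genes with that period is not given here. The g test was run without removing a straight line, so a steady change over the series enters its 48-h term. The 48-h period is thus not a finding apart from the day change.

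Phases of the rhythmic members are given as hours after lights-on, from a cosine fit without a straight line unless stated. They lay in the first hours after lights-on, later in the day, or in the evening and night. P4ha1b, p4ha2 and loxl2b had their phases in the first hours after lights-on. P4ha1b, a catalytic subunit of prolyl 4-hydroxylase, peaked at 2.82 h in DD and 0.34 h in LD with amplitudes of 0.52 in DD and 0.70 in LD (limma adjusted p 0.000189). Its signal was 11.50 in DD and 11.79 in LD at 0 h, 9.87 in DD and 10.22 in LD at 16 h, and 10.703 in DD and 11.06 in LD at 24 h, so the second peak was lower than the first in both conditions. P4ha2 had phases of 2.27 h in DD and 2.67 h in LD with amplitudes of 0.22 and 0.34, and loxl2b had phases of 3.91 h in DD and 2.92 h in LD with amplitudes of 0.50 and 0.55. One of the 3 probes of p4ha2 was not rhythmic (limma adjusted p 0.293), and both probes of loxl2b were.

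Mmp30 had the largest 24-h amplitude of the members in LD. Its signal in DD was lowest at 0 h (11.26) and highest at 32 h (12.98), and in LD lowest at 44 h (11.31) and highest at 4 h (13.17). The phases were 8.60 h in DD and 7.57 h in LD, with amplitudes of 0.52 in DD and 0.77 in LD (limma adjusted p 0.000133). The g-test p was 0.0787 in DD and 0.00152 in LD.

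The membrane-type metalloproteinase genes mmp14a and mmp14b, together with timp2a, had evening and night phases. Mmp14a peaked at 18.40 h in DD and 16.74 h in LD (amplitudes 0.27 and 0.28), and its duplicate mmp14b at 16.43 h in DD and 14.54 h in LD (amplitudes 0.23 and 0.31). In DD mmp14a ranged from 13.88 at 32 h to 14.65 at 16 h, and in LD from 13.74 at 28 h to 14.72 at 20 h. Timp2a, which in mammals forms a complex with membrane-type metalloproteinase and mmp2, had phases of 16.98 h in DD and 16.52 h in LD with amplitudes of 0.20 and 0.22. Loxa and mmp2, whose dominant period was 48 h, passed the limma test, which fits a straight line beside the rhythm. With that line loxa had phases of 19.26 h in DD and 17.31 h in LD, and mmp2 18.61 h in DD and 17.54 h in LD. Without it the phases were 20.76 h and 20.39 h in DD and 18.28 h and 18.80 h in LD. Both genes lost the limma call when the straight line was left out of the fit, with adjusted p of 0.26 for loxa and 0.555 for mmp2 by limma. Outside the rule, serpinh1b, the collagen chaperone Hsp47, was rhythmic with phases of 5.22 h in DD and 5.17 h in LD (limma adjusted p 1.08e-05).

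**Figure D3:**
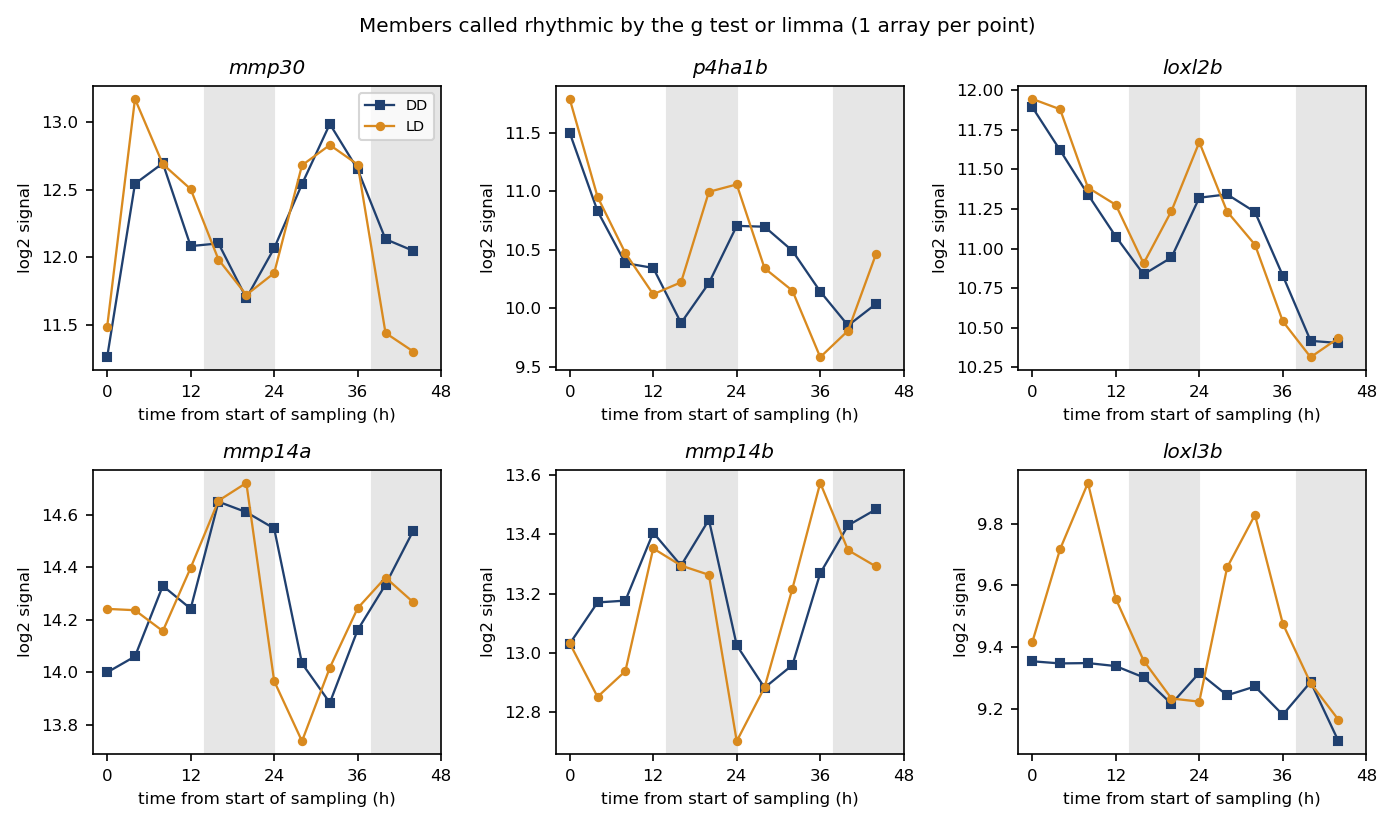
Log2 signal (y axis) against hours from the start of sampling (x axis) for 6 members called by the g test or by limma, with 1 array per point, squares for DD, circles for LD and grey bands for the dark hours of the LD cycle. P4ha1b and loxl2b are high near 0 and 24 h, mmp14a and mmp14b are high at 16 and 20 h, low at 28 h and higher again at 40 and 44 h, and loxl3b peaks at 8 and 32 h in LD while its DD arrays stay between 9.10 and 9.35.

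Loxl3b, a lysyl oxidase of the cross-linking family, had a daytime wave in LD that was not detectable in DD. In DD its 12 arrays lay between 9.10 and 9.35 with a median of 9.30, and in LD they ranged from 9.17 at 44 h to 9.93 at 8 h with a second high array of 9.83 at 32 h. The LD arrays at 0, 4, 8, 12, 28, 32 and 36 h, all at lights-on or in the light, were above each DD array, the LD array at 16 h was level with the highest DD array, and at 20 and 24 h LD stood at 9.23 and 9.22. The amplitude was 0.05 in DD and 0.32 in LD, with a limma adjusted p of 0.93 for the DD terms and 9.01e-05 for the LD terms. The DD terms alone also missed the limit for mmp14b (limma adjusted p 0.0724), mmp14a (0.0757), mmp2 (0.082), p4ha2 (0.179) and timp2a (0.23). They passed for loxa, mmp30, loxl2b and p4ha1b. For loxl3b the direct test of DD against LD 24-h terms gave p 0.000223 and an adjusted p of 0.126 by limma, which misses the limit. In that test 0 of 37 members passed, against 0.0181% of RefSeq genes. At an unadjusted p under 0.05 there were 3 members, the others being p4ha1b (p 0.00679) and col9a2 (p 0.0383). The share of RefSeq genes at that unadjusted limit is not given here. The second loxl3b probe was not rhythmic (adjusted p 0.608). The median amplitude of the members was 0.23 in DD and 0.27 in LD, against 0.16 and 0.20 over all RefSeq genes, and 24 of 37 members had a lower amplitude in DD, against 68.2% of RefSeq genes. These amplitudes come from the fit without a straight line, so slow changes over the 2 days enter them and they do not measure the rhythm alone. In DD the amplitude of col11a2 was 0.38 without the line and 0.02 with it, and that of loxa 0.34 and 0.42.

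The mean level in DD was set against that in LD with time as a block. Of 37 members 2 were higher in DD (5.41%), mmp23bb and timp2b, against 7.73% of RefSeq genes, and 2 were lower (5.41%), loxa and loxl3b, against 8.67%. By the probe read for each gene no collagen passed, with group medians of 0.05 for the fibrillar and -0.08 for the other collagens. Single collagens ran from -0.17 for col4a5 to 0.24 for col11a1b, and col1a1b, at 0.21, had an adjusted p of 0.0577 by limma. Condition and slide cannot be told apart in this comparison, since no slide held both.

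Mmp23bb ranged from 10.08 to 10.81 in DD with a median of 10.49, against 9.94 to 10.39 in LD with a median of 10.20. The ranges overlapped, but the DD array was the higher at 12 of 12 times (log2 difference 0.31, SE 0.06, adjusted p 0.00237 by limma). These times include 0 h, the time of lights-on, when mmp23bb already read 10.81 in DD and 10.32 in LD. Timp2b, an inhibitor of metalloproteinases, ranged from 7.96 to 10.42 in DD with a median of 8.54, against 7.78 to 8.86 in LD with a median of 8.05, and was higher in DD at 11 of 12 times (log2 difference 0.76, SE 0.21, adjusted p 0.0246). Its 3 highest arrays were in DD at 0, 4 and 20 h, with 9.84, 10.42 and 9.93, against 8.86, 7.82 and 7.89 in LD. The difference was 1.22 in the first 24 h alone and 0.29 in the second 24 h alone (adjusted p 0.165), and at 0 h, the time of lights-on, DD was already the higher.

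Mmp9, or gelatinase B, a protease of leukocytes and of injured or remodelled tissue, shared 2 of those high DD arrays. Its signal was 11.60 at 4 h and 12.68 at 20 h in DD, against 10.39 and 10.67 in LD, and from 24 to 44 h it was 10.45 to 11.07 in DD, against 10.88 to 11.45 in LD. The DD minus LD difference of 0.31 with an SE of 0.19 did not pass (adjusted p 0.309). Markers of macrophages and neutrophils did not pass in the DD against LD comparison either, with differences of -0.05 for coro1a, -0.12 for mpeg1.1 and -0.08 for mpx. That comparison averages over all times, so it cannot show whether these markers were raised on the DD arrays of 4 and 20 h. Their signals on those arrays are not given here.

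In each of 4 lists for other cell types 1 marker was higher in DD, where 7.73% of RefSeq genes were higher. They were 1 of 4 chondrocyte markers, sox9a (log2 difference 1.49, adjusted p 0.000121 by limma), and 1 of 4 osteoblast markers, bglap (0.84, adjusted p 0.000115). The others were 1 of 4 fibroblast and fin fold markers, fbln1 (0.575, adjusted p 0.000142), and 1 of 4 epidermal markers, tp63 (0.19, adjusted p 0.0431). In these 4 lists 0 markers passed as lower. Of 2 notochord, 3 muscle, 2 retina and brain and 3 melanophore markers, 0 passed as higher and 0 as lower. The remaining chondrocyte markers did not pass, at -0.12 for matn1, 0.06 for cnmd and 0.09 for epyc. Neither did the osteoblast markers sp7 (-0.47), runx2b (-0.14) and spp1 (-0.07). The summed linear signals were 26364 to 72139 in DD against 24755 to 67264 in LD for the chondrocyte list, and 31741 to 78650 in DD against 21614 to 36625 in LD for the osteoblast list. For the fibroblast and fin fold list they were 33071 to 55833 in DD, against 28512 to 58551 in LD, and for the epidermal list 1224595 to 1441100 in DD, against 1090759 to 1417966 in LD. The summed ranges overlapped in all 4 lists, and the part of these cell types in the members' differences was not tested.

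**Figure D4:**
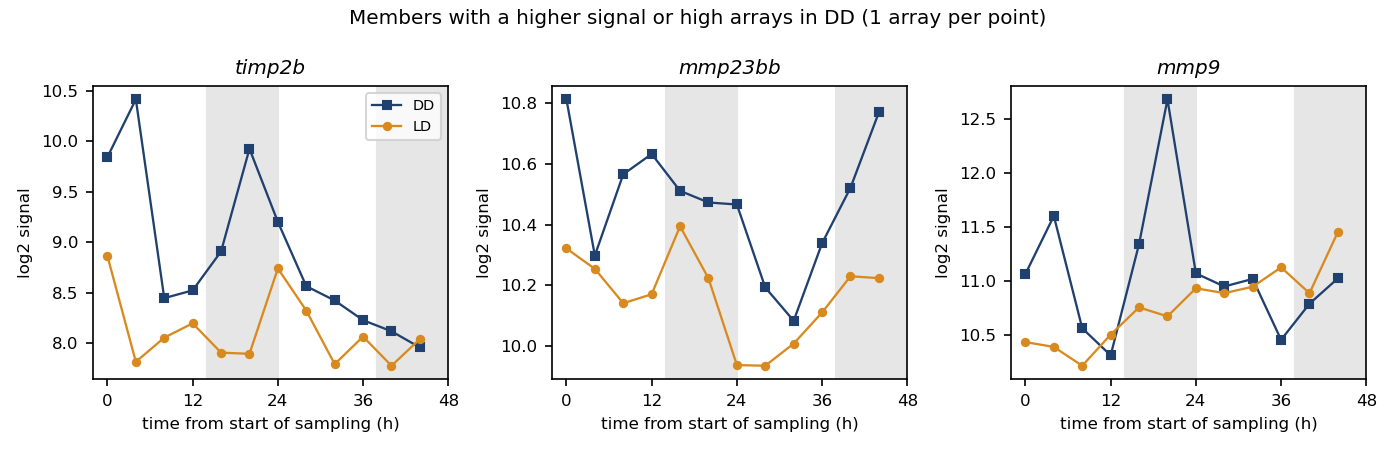
Log2 signal (y axis) against hours from the start of sampling (x axis) for timp2b, mmp23bb and mmp9, with 1 array per point, squares for DD, circles for LD and grey bands for the dark hours of the LD cycle. The DD arrays of timp2b at 0, 4 and 20 h and of mmp9 at 4 and 20 h stand above the LD arrays of the same times, and mmp23bb is higher in DD at 12 of 12 times.

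The lower members differed by less. Loxa, related to mammalian lysyl oxidase, ranged from 9.21 to 10.58 in DD with a median of 9.97, against 9.58 to 10.60 in LD with a median of 10.14, and was lower in DD at 11 of 12 times (log2 difference -0.22, SE 0.06, adjusted p 0.0237 by limma). Without the arrays of 4, 12 or 40 h its adjusted p was 0.0506 to 0.0513. Loxl3b had a difference of -0.21 (SE 0.07, adjusted p 0.0443), and it lost the call without the arrays of 4, 8, 12, 16, 28, 32, 36 or 44 h. Leaving out the DD or the LD array of a time gave the same fit, since time was a block. The read probes of col1a1a and col1a2 did not pass (0.07 and 0.04), while a second probe of each was higher in DD, by 0.20 (adjusted p 0.0283) for col1a1a and 0.41 (adjusted p 0.0198) for col1a2.

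The arrays labelled mitfa morphant were set against control morphant and WT arrays together, as the study grouped them. Of 36 members 1 was higher (2.78%), mmp2, against 1.13% of RefSeq genes, and 0 were lower, against 0.472%. At an unadjusted p under 0.05 in the same limma fit, 4 members were higher and 3 lower. The share of RefSeq genes at that unadjusted limit is not given here, so these counts are not read as a result. The methods' test of p and fold together called 0 members in either direction, against 49 RefSeq genes higher and 51 lower of 10391. The collagen groups had medians of -0.15 for the fibrillar genes and -0.73 for the other collagens, of which 3 were tested.

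Mmp2 read 13.65, 13.67 and 13.67 on the arrays labelled mitfa morphant, against 13.02 and 12.92 on the control morphant arrays and 12.73 and 12.95 on the WT arrays. The 3 arrays lay within 0.03 of each other and above all 4 others. The log2 difference was 0.76 with an SE of 0.11, a fold of 1.69 and an adjusted p of 0.0473 by limma. With age as a block the adjusted p was 0.0675, and leaving out any of the 7 arrays gave differences of 0.70 to 0.80 with adjusted p of 0.0547 to 0.176, so the call rests on the full set of 7. Loxl5b, the lysyl oxidase gene with the largest fall in the time course, read 6.21, 6.42 and 6.03, against 5.73 and 5.49 in control morphants and 5.05 and 5.13 in WT (difference 0.87, SE 0.19, adjusted p 0.0602).

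The 3 members furthest below the other arrays were col10a1a, col9a2 and col11a2, none of which passed the test. Col11a2 read 8.25, 7.78 and 7.99 on the arrays labelled mitfa morphant, against 8.66 and 8.76 in control morphants and 8.40 and 8.97 in WT (difference -0.69, SE 0.17, adjusted p 0.0757 by limma). Col9a2 read 12.85, 12.02 and 12.50, against 13.13 and 13.35 in control morphants and 12.94 and 13.33 in WT (difference -0.73, SE 0.21, adjusted p 0.095). In both genes the 3 arrays labelled mitfa morphant lay below the 4 others. The same held for plod3 (adjusted p 0.232 by limma), p4ha1a (0.238), col11a1a (0.331) and col1a1b (0.347), so it is not particular to col11a2 and col9a2. The share of all genes with such a separation is not given here. The difference was larger at 50 hpf (-0.98 for col11a2 and -1.08 for col9a2) than at 48 hpf (-0.27 and -0.19), which was not tested. Col10a1a scattered most, with 7.76, 6.41 and 8.95, against 8.06 and 9.63 in control morphants and 9.82 and 10.62 in WT (difference -1.83, SE 0.70, adjusted p 0.177). The other type XI genes had differences of -0.28 for col11a1a and -0.13 for col11a1b, and neither passed. Of 3 chondrocyte markers 0 passed, with -0.38 for cnmd, -0.32 for epyc and -0.12 for sox9a and summed signals of 3741 to 5269 on the arrays labelled mitfa morphant, against 4374 to 6349 on the others. The type I genes col1a1a (0.02, SE 0.11) and col1a2 (-0.24, SE 0.12) did not pass. The 2 sparc probes disagreed in sign, at 0.31 for the read probe and -0.40 for the other, and neither passed.

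**Figure D5:**
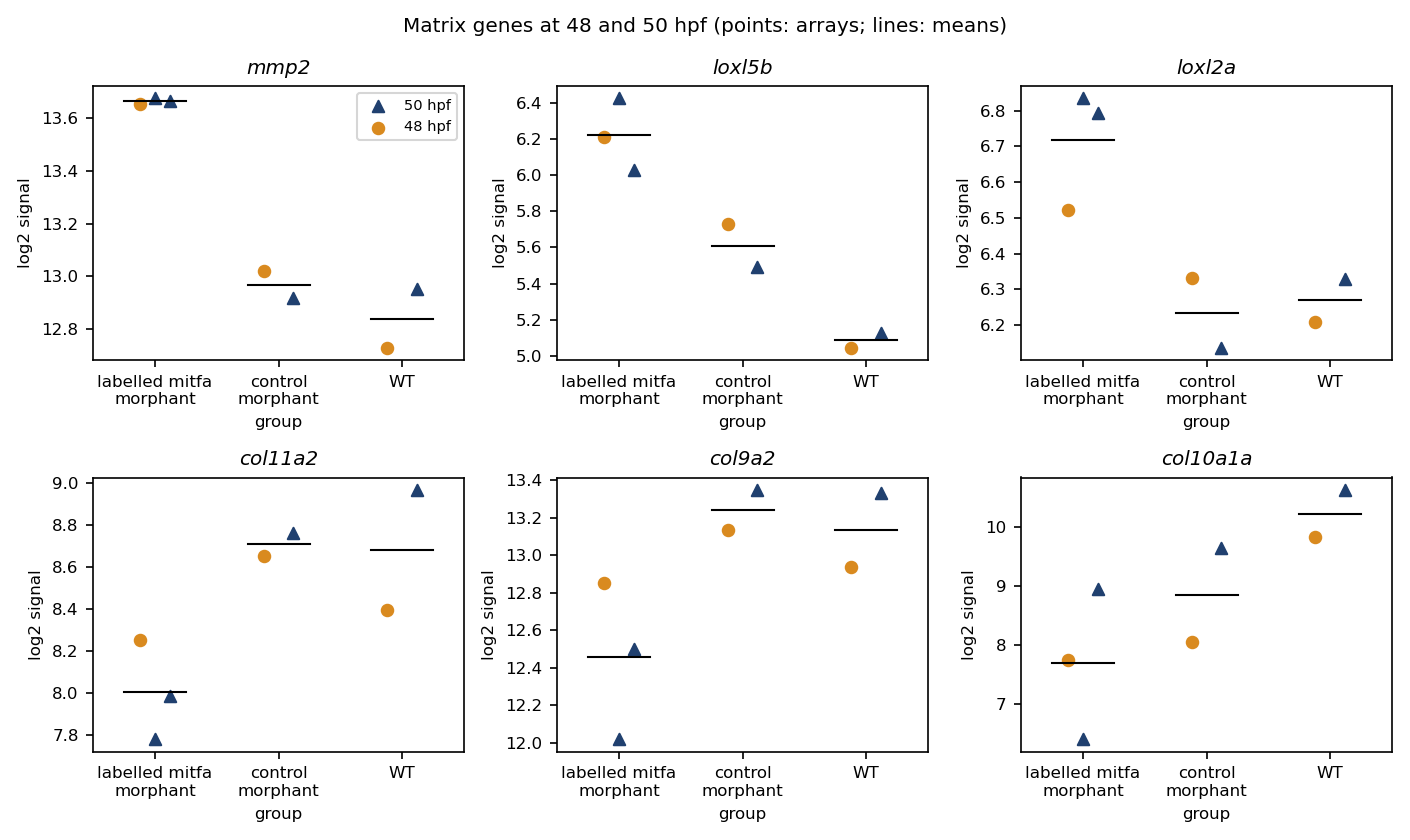
Log2 signal (y axis) of 6 members in the arrays labelled mitfa morphant, the control morphant arrays and the WT arrays (x axis), with triangles for 50 hpf, circles for 48 hpf and lines for group means. For mmp2 the 3 arrays on the left lie at 13.65 to 13.67, above the 4 others, and for col11a2 and col9a2 they lie below the 4 others without an adjusted p under 5%.

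Between 50 and 48 hpf, with treatment in the fit, 0 of 36 members were higher and 0 lower at an adjusted p of 5% by limma, against 0% and 0.0192% of RefSeq genes. At an unadjusted p under 0.05, 2 were higher and 1 lower, and the share of RefSeq genes at that limit is not given here. Age and slide cannot be told apart here. Mmp30 read 5.88 and 5.54 at 50 hpf and 6.15 at 48 hpf on the arrays labelled mitfa morphant, 5.19 at 50 hpf and 6.24 at 48 hpf in control morphants, and 4.74 at 50 hpf and 5.67 at 48 hpf in WT, a difference of -0.77 with an SE of 0.16 (p 0.00379 before adjustment in the limma fit). P4ha2 was higher at 50 hpf by 0.36 with an SE of 0.09 (p 0.0081), and col11a1b by 0.34 with an SE of 0.13 (p 0.045).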

How the data were processed

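Scanner files deposited by the authors hold spot intensities, from which background and spatial trend had been removed array by array in Agilent Feature Extraction (version 10.5.1 per the submitters' processing notes), with flags for spots well above background, and log2 values that the authors quantile normalized in GeneSpring. The deposited flags are yes or no. Here the processed intensities were log2 transformed, outlier spots set to missing, spots of a probe averaged and each set of arrays quantile normalized by limma 3.58.1 in R 4.3.3, which gave correlations of at least 0.9999 with the deposited log2 values. Of 43603 probes, 16568 were matched to 11484 RefSeq genes through the accession of the array, and 27035 were not. Probe sequences were not analysed here, so cross-hybridization between duplicated genes was not checked. A gene was read through its detected probe with the highest mean signal.

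The day change was fitted with a term for each condition and clock time, DD minus LD with time as a block, rhythms by the g test over periods of 48, 24, 16, 12 and 9.6 h and by limma, and morphants without a block. P-values were adjusted over all detected probes and measure only the spread between these pools. Alternatives were the scaling to the 75th percentile, normexp (offset 50, on median signals, since mean signals are not among the columns used), the deposited values, other detection filters, slide or age as blocks, parts of the arrays and each array left out. Leaving out time-course arrays, and DD or LD alone with slide as a block, were chosen after seeing the data. The code was tested on simulated data.

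The members and gene lists were chosen with earlier results of these data known. Named genes are a fixed core, up to 8 called members per direction and comparison, or the 3 smallest p where none passed. Loxl5b and col9a2 in the morphants, mmp23bb in the day change and second probes were named after their values were seen.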

Additional observations from a re-analysis of the deposited data

How the results depend on the processing

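Outside the array-by-array fits, 84 of 104 recounts of the members called stayed within 1.5 times the reported count. For the day change the 75th percentile scaling, normexp, the deposited values and the detection filters kept the counts within that range, whereas with the slide as a fixed block 1 member was lower and 0 higher, and in DD alone or LD alone with that block 0 were lower and 0 higher. The median standard error of the members was 0.18 with the block and 0.08 without it. Removing a straight line before the g test gave 15 members oscillating in LD at the stricter limit, against 7. The share of RefSeq genes called that way and the names of the added members are not given here. The count of 15 is thus not read as a result. In DD minus LD, members called higher numbered 4 with normexp, 1 without the block for time, 1 in the first 24 h alone and 0 in the second 24 h alone, and those called lower numbered 1 without the detection filter, 0 without the block for time, 1 in the first 24 h alone and 0 in the second 24 h alone. The 1 member higher in the arrays labelled mitfa morphant became 0 with age as a block, without the detection filter, against control morphants alone, against WT alone and by the methods' t-test. The causes were not tested. Leaving out 1 array at a time gave 22 to 24 members lower and 2 higher in the second 24 h, 9 to 12 rhythmic by limma, 2 to 3 higher and 0 to 2 lower in DD (0 lower without an array of 4 or 12 h of either condition, and 1 without one of 8, 16 or 28 to 44 h), and 0 higher and 0 lower in the arrays labelled mitfa morphant. It gave 0 higher and 0 lower between 50 and 48 hpf. None of the genes followed under the alternatives changed direction. The DD and LD arrays are paired by the sampling time of the labels, in the block for time, and by no other number. The median of all RefSeq genes lay within 0.041 of 0 on the log2 scale in each comparison and scaling. The arrays at 48 and 50 hpf, with median signals of 41.9 to 60.4 against 214.8 to 339.1 in the time course, lay closer to background.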
